A study of Mus musculus with 59 samples.

Results

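The 5 kb windows inside very long genes were followed through 16 chromatin precipitates of mouse embryonic stem cells. A window was a member when it lay wholly inside an autosomal gene span of 300 kb or more, with spans from RefSeq on GRCm38.p6 (mm10). Of 526765 windows on chromosomes 1 to 19 and X, 63772 (12.1%) were members, in 563 of 49550 gene spans. A span was called expressed when its gene had a mean of at least 1 CPM (reads of the gene scaled to equal library totals) in the libraries parental_1 and parental_2 at 37 °C, and silent below that. The expressed class held 231 spans with 22793 windows, and the silent class 306 spans with 37120 windows. The other 26 spans (3859 windows) had no row in the RNA table and were left out of both classes. Windows outside long spans numbered 213836 over other genes and 249157 over no gene.

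The series compared chromatin pulled down with biotin-tagged DGCR8, Drosha, Dicer and METTL3, and the RNA of cells without these proteins or after heat. All cells were embryonic stem cells of a 129xC57Bl6 hybrid line grown on gelatin. Precipitates came from Rosa26:BirA cells, in which a bacterial biotin ligase tags a FLAG/Avi-marked protein, and were taken with streptavidin beads, so no antibody was used. In the first set, DGCR8 FLAG/Avi chromatin was crosslinked with formaldehyde or with added DSG (1 precipitate each), Drosha and Dicer with DSG (1 each), beside 1 DGCR8 input and 1 parental input. In the second, METTL3 FLAG/Avi clones 1 and 2 gave 2 precipitates and 1 input each. In the third, DGCR8 was precipitated once from wild type and once from METTL3KO cells, both carrying DGCR8 FLAG/Avi, with 1 wild type input. The heat set held DGCR8 and the METTL3 FLAG/Avi lines labelled H4 and H5, each with 1 precipitate at 37 °C, 1 after 1 h at 42 °C and 1 input at 37 °C, so heated precipitates were set against unheated inputs. Crosslinkers of the last 3 sets are not given in the labels, nor whether H4 and H5 are separate clones.

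The RNA libraries came from parental Rosa26:BirA, DGCR8 FLAG/Avi cells (2 at 37 °C, 2 at 42 °C), from 4 METTL3KO lines of the same background (4 and 4), and from DGCR8 Flox/Flox cells carrying Rosa26:CRE and Drosha Flox/Flox cells, untreated or with 0.5 µM 4-hydroxytamoxifen (4OHT) for 48 h (2 per group). No line without floxed alleles received 4OHT. Nothing in the labels says that replicates were separate cultures, so a p-value here speaks for the variation among the deposited libraries alone, part or all of which can be technical. The libraries labelled knockout were checked at the target genes. Mettl3 stood at 70.9 and 65.1 CPM in parental cells at 37 °C and between 21.2 and 44.7 in the knockout lines. Drosha stood at 118 and 113 CPM untreated and 25.9 and 27.7 with 4OHT. Dgcr8 went the other way, from 134 and 142 to 251 and 270 CPM. These counts cover the whole gene, not the floxed exons, so the libraries of that line are called by their labels. All 9 stem cell markers checked were present in parental RNA (45.0 to 947 CPM). Of the 6 fibroblast markers Thy1 stood at 10.7 and 8.95 CPM, Col1a1 reached 1.16 and Lum was at 0, of the neural markers Tubb3 reached 39.4 and Sox1 17.5, and of the endoderm markers Gata4 reached 6.11 and Afp was at 0.

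Very long genes are mostly intron. Many code for proteins of neurons, such as synaptic adhesion molecules and ion channels, and are shut in stem cells. They tend to be replicated late, and several span common fragile sites. DGCR8 and Drosha form the Microprocessor, which binds nascent transcripts and cuts microRNA hairpins, often out of introns, from them. Dicer then trims the hairpins, mostly in the cytoplasm. METTL3 is the catalytic subunit of the complex that writes N6-methyladenosine (m6A) on RNA, also during transcription. Proteins tied to nascent RNA can be crosslinked to the gene being transcribed, which makes a long transcribed span a wide target.

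Long spans carry both hairpins and start regions, and 2 sets of sequences show what the windows hold. The first is the microRNA cluster inside an expressed gene, Aopep (chr13:62964893-63326096, plus strand), to which the results return. RefSeq places its hairpins in the window chr13:63300001-63305000. Mature sequences are given with the seed, bases 2 to 8, in capitals.
miR-23b-5p: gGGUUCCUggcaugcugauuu
miR-27b-5p: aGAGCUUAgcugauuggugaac
miR-27b-3p: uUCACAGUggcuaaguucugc
miR-24-1-5p: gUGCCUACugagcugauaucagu
miR-24-3p: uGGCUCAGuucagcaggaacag
All 5 seeds differ. Across the long spans, 28 RefSeq hairpins lay in 25 windows of the expressed class and 24 in 23 windows of the silent class.

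The second set is the start regions, since the start is the end of the span where the classes differed most in DGCR8 at 37 °C once input density was matched. In the plain ratio they differed least there. The 200 bases upstream of the RefSeq start are shown for an expressed gene, Ranbp17 (a nuclear transport receptor of the importin family; chr11:33513754-33513953, minus strand), and for a silent one, Lsamp (a neuronal adhesion protein; chr16:39984164-39984363, plus strand). CG dinucleotides are in capitals, and each gene has the median CG number of its class.
Ranbp17: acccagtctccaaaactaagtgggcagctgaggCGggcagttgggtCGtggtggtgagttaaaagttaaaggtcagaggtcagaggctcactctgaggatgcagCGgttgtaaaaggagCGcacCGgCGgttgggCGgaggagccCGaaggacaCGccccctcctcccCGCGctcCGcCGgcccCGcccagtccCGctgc
Lsamp: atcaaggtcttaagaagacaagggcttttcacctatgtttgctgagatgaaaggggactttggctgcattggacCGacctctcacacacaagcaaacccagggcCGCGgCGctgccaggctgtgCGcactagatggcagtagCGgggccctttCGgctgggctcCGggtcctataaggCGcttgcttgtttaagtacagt
Of the expressed long genes with a start region in the RefSeq table, 127 of 181 (70.2%) held at least 10 CG, searched as the letters CG, against 107 of 229 silent ones (46.7%) and 34.2% of all 32851 regions of the same length. The medians were 15, 9 and 5 CG. For each gene the listed region nearest the outer start of the span was taken, at any distance. It lay 31 bases from that edge for Ranbp17 and 110 for Lsamp, but 71803 for Nrxn3 and 614598 for Dlg2. How many regions lie far inside their span was not counted.

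The spans themselves ranged to 2271 kb for Ptprd, a receptor phosphatase of synapses, among expressed genes and to 2197 kb for Lsamp among silent ones. Median lengths were 409 and 480 kb, and 12 expressed and 42 silent spans exceeded 1 Mb. Parental RNA was at a median of 10.2 CPM in the expressed class and 0.113 CPM in the silent class, in which 79 genes had no read. The nearest genes inside the length bound were Zfp423 (300.24 kb) and Kcnq3 (300.26 kb), and outside it Akap13 (299.08 kb) and Atp2b2 (298.78 kb). Just inside the expression bound stood Syt1 (1.02 CPM) and Pclo (1.03 CPM), and just outside it Mgat4c (0.997 CPM) and Prkd1 (0.950 CPM). Only 1 of the parental libraries exceeded 1 CPM in 34 spans. CPM here is per gene and not per length.

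Silent long genes were thinly covered by the inputs. Input reads per window, relative to the mean of all windows, were between 0.406 and 0.762 in the silent class of the 8 inputs and between 0.975 and 1.15 in the expressed class. Windows without a gene lay at 0.544 to 0.747 and other genes at 1.33 to 1.65. Library totals were 13.8 M reads in the smallest and 62.1 M in the largest input, and 16.1 M to 86.3 M reads in the precipitates. The median window held 22 to 103 input reads in the expressed class and 15 to 48 in the silent one, so single windows are imprecise and sums over spans are used. Some libraries stood apart on whole chromosomes: METTL3 clone 2 on chromosome 18 (0.42 and 0.33 above the level expected from input, log2), DGCR8 of the first set on chromosome 14 (0.66 and 0.75), Drosha and Dicer on chromosome 8 (0.62 and 0.30) and METTL3 H4 at 37 °C on chromosome 1 (0.50). Others were low on whole chromosomes: Drosha on 14 (-0.48), DGCR8 of the first set on 7, 8 and 16 (-0.42 to -0.29), Dicer on 7 (-0.34) and DGCR8 in METTL3KO cells on 14 (-0.29). Values with each chromosome scaled on its own are given where this moves a result.

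In every precipitate the plain ratio was lower over expressed than over silent long genes. The ratio is the log2 of summed precipitate reads over summed input reads, each per library total. For METTL3 of clones 1 and 2 the expressed class stood at 0.13, 0.11, 0.12 and 0.14 and the silent class at 0.29, 0.18, 0.21 and 0.24, a difference of -0.105 ± 0.041 (SD, n = 4). All 4 precipitates were lower over the expressed class. The gap was wider in the heat set at 37 °C, at -0.63 for H4 and -0.42 for H5. DGCR8 gave -0.30 with formaldehyde, -0.27 with DSG, -0.27 in wild type cells, -0.24 in METTL3KO cells and -0.22 in the heat set at 37 °C. Drosha was at -0.31. Dicer hardly differed, at -0.0059 (95% interval for counting error only, -0.010 to -0.0017).

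The plain ratio followed the input itself. Across the 537 classed spans it fell as input density rose, with a Spearman rho of -0.88 for DGCR8 at 37 °C, -0.95 for METTL3 H4 at 37 °C and -0.49 for the mean of the METTL3 clones, and 0.0020 for Dicer. These are descriptions across spans, which share libraries and base composition, and the input is also the denominator. Ptprd, at 0.293 of the mean input density, had plain ratios of 2.08 for METTL3 H4 and 1.07 for DGCR8 at 37 °C. Gse1 (chr8:120228501-120581383, plus strand), a nuclear protein gene at 7.18 times the mean input density, had -1.65 and -0.87.

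The classes were therefore also compared among windows of like input density, an alternative chosen after seeing the data. Long-gene windows were sorted into 20 equal strata by their density in the inputs of the other sets, and the class difference was averaged over strata. The expressed class was then the higher one, by more than counting error allows, in 13 of the 16 precipitates. DGCR8 with formaldehyde was no longer among them with each chromosome scaled on its own (0.0029, 95% counting interval -0.0034 to 0.0093). The METTL3 clones stood at 0.044, 0.051, 0.054 and 0.032, a mean of 0.045 ± 0.0099 (SD, n = 4). This did not hold at all densities. In the densest of 5 equal groups of windows by input density the clones were at -0.044, -0.011, 0.0015 and -0.040. In the other groups they lay between 0.017 and 0.057. METTL3 H4 and H5 at 37 °C gave 0.104 and 0.0997.

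**Figure D1:**
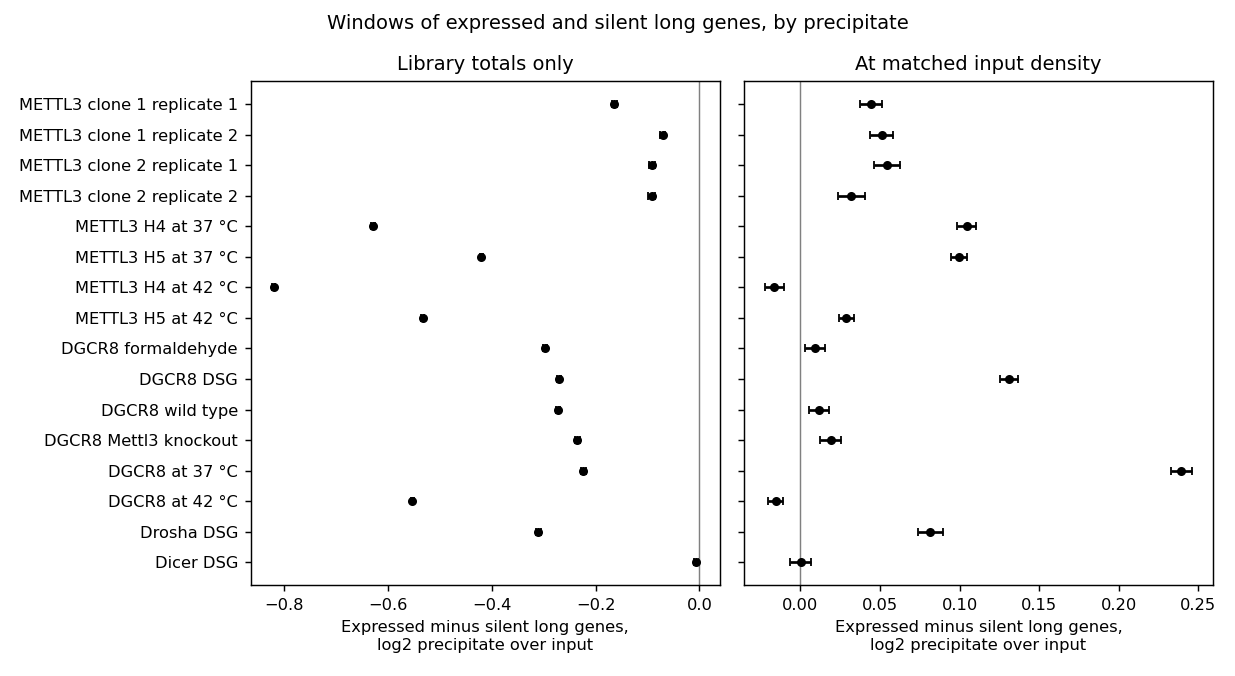
Expressed minus silent class of long-gene windows in each of the 16 precipitates, as log2 precipitate over input, from library totals (left) and at matched input density (right). Points are single libraries, bars are 95% counting intervals and the horizontal scales differ; values on the left lie below 0, and on the right DGCR8 at 37 °C is highest at 0.24.

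DGCR8 at 37 °C in the heat set had the widest matched gap, 0.239 (95% counting interval 0.233 to 0.246), which is 18.0% more signal over expressed than over silent windows. With DSG the gap was 0.131 (0.125 to 0.137). The other unheated DGCR8 precipitates were near 0, at 0.0092 with formaldehyde, 0.012 in wild type and 0.019 in METTL3KO cells. The 4 precipitates without heat from cells with METTL3 thus spread from 0.0092 to 0.239, and each condition had 1 library, so none of these differences has a replicate check. Drosha was at 0.082 (0.074 to 0.089) and Dicer at 8.88e-05 (-0.0067 to 0.0069). Intervals cover counting error only. Within 5 equal groups of windows by input density, DGCR8 at 37 °C was at -0.015 in the thinnest, then 0.19, 0.28, 0.34 and 0.31 in the densest. In such groups DGCR8 with formaldehyde ran from -0.046 to 0.0075, and DGCR8 of wild type cells from -0.062 to 0.040.

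**Figure D2:**
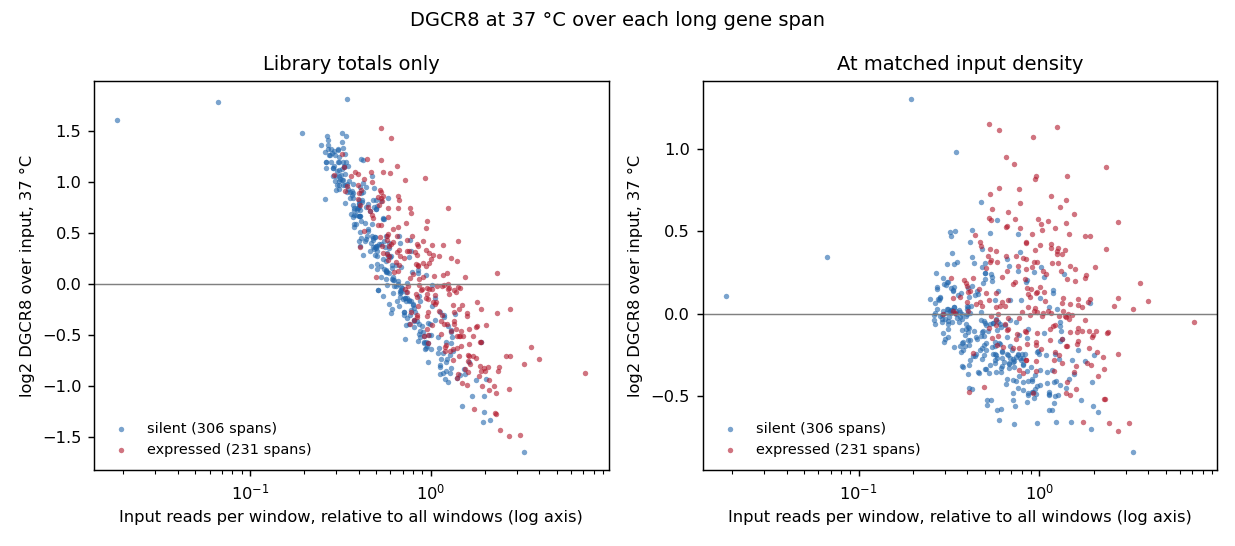
DGCR8 at 37 °C of the heat set over each long span (log2 over input; 231 expressed and 306 silent points) against the input reads per window relative to all windows (log axis), from library totals (left) and at matched input density (right). The plain ratio falls with input density (rho of -0.88), and most of that slope is gone on the right (-0.17).

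METTL3 of clones 1 and 2 was tested over whole spans with edgeR's quasi-likelihood test against the 2 inputs. Of the 231 expressed spans 164 were higher than input and 20 lower, and of the 306 silent spans 255 were higher and 6 lower. Among all 37835 spans tested the shares were 23.3% higher and 28.5% lower (Benjamini-Hochberg adjusted p under 0.05). The median log2 fold change was 0.26 in the expressed and 0.29 in the silent class. Without the clone 1 input the counts were 114 and 13 for expressed and 165 and 2 for silent spans, against 10.8% higher and 22.4% lower of all spans. The median input density of these spans was 0.965 and 0.544 of the mean. Long spans also sum many windows, so their counting error is smaller than that of most spans tested. The part of either in the counts was not tested.

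Among the longest expressed genes, Ptprd was at 0.50, 0.29, 0.29 and 0.27 in the 4 METTL3 precipitates (log2 over input), a fold change of 0.36 ± 0.068 (SE, adjusted p = 2.82e-04). Cntnap2 (2241 kb), which codes for a neurexin-like adhesion protein, was at 0.48, 0.27, 0.29 and 0.30. Macrod2 (1998 kb), which codes for an ADP-ribose hydrolase and lies in a fragile site, was at 0.44, 0.24, 0.28 and 0.26. Every one of these exceeded 0, and clone 1 replicate 1 was highest for all 3. Among the longest silent genes, Lsamp was at 0.43, 0.20, 0.25 and 0.24, and Lrp1b (2058 kb), which codes for a lipoprotein receptor relative, at 0.47, 0.19, 0.23 and 0.25. Fold changes were 0.34 ± 0.064 for Nrxn3 (1612 kb, expressed) and 0.28 ± 0.062 and 0.34 ± 0.061 for the silent Dlg2 and Csmd1.

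The lowest METTL3 values lay in spans with dense input. Gse1 was at -1.20, -1.01, -1.24 and -1.07, a fold change of -1.11 ± 0.061 (adjusted p = 2.27e-10), below every other expressed long gene. Prdm16 (chr4:154316122-154637360, minus strand), a zinc finger methyltransferase, followed at -0.77 ± 0.059, with 3.12 times the mean input density. Cdh23, a cadherin of hair cells, was at -0.61 ± 0.060, Ulk4, a pseudokinase, at -0.54 ± 0.064 and Ttc28 at -0.48 ± 0.059. The lowest silent span was Rbfox3, the neuronal splicing factor NeuN, at -0.73 ± 0.069 with 3.30 times the mean input, then Gabbr2, a GABA-B receptor subunit (-0.29), Dscaml1 (-0.27), Shank2, a postsynaptic scaffold (-0.22), and Csmd2 (-0.19). The input moved with these values. At matched input density Gse1 stood at -0.78, -0.71, -0.87 and -0.78, and Rbfox3 at -0.40, -0.38, -0.56 and -0.32. The strata hold equal numbers of windows, so the densest ones cover a far wider range of density than the others. Spans with input as dense as that of Gse1 and Rbfox3 are therefore matched only in part. Their matched values cannot tell whether dense input accounts for the low signal.

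The highest expressed spans were Dtna, a dystrophin-associated protein (0.56), Ube2e2, a ubiquitin-conjugating enzyme (0.55 ± 0.069), Fhod3, a formin (0.50), Ranbp17 (0.48 ± 0.063) and Macf1, a giant actin-microtubule linker (0.48 ± 0.064). Dtna and Fhod3 lie on chromosome 18, where both clone 2 precipitates were high, and so do all 5 of the highest silent spans, Ccdc178 (0.65), A330093E20Rik (0.58), Rit2 (0.57), Dok6 (0.57) and Dcc, the netrin receptor (0.56). The part of that chromosome in these ranks was not tested. Macf1 was at 0.50, 0.50, 0.51 and 0.34, and Ranbp17 at 0.51, 0.46, 0.47 and 0.43. Both remained above 0 in all 4 at matched input density, Macf1 at 0.38, 0.38, 0.39 and 0.18 and Ranbp17 at 0.25, 0.25, 0.23 and 0.17.

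For DGCR8 the highest expressed spans, by the mean of the 4 unheated precipitates from cells with METTL3, were Kcnt2 (1.14 ± 0.33, SD over these conditions), a sodium-activated potassium channel, Ptprd (0.97) and Nalcn, a sodium leak channel (0.96). Nalcn lies on chromosome 14, where the DGCR8 precipitates of the first set stood apart, and at matched density its DSG value went from 0.71 to 0.022 once each chromosome was scaled on its own. The lowest were Gse1 (-0.93 ± 0.25), Prdm16 (-0.82) and Cdh23 (-0.80). Gse1 lies on chromosome 8, where both DGCR8 precipitates of the first set were low, and scaling each chromosome on its own took its matched values from -0.58 to -0.13 with formaldehyde and from -0.55 to -0.086 with DSG. Drosha was highest over Kcnt2 (1.46), Psd3 (1.12) and the glutamate receptor gene Gria4 (1.09), and its value over Psd3, on chromosome 8, fell from 0.88 to 0.44 at matched density by the same scaling. It was lowest over Zbtb7c (-0.91), Camta1 (-0.88) and the calcium channel gene Cacna1d (-0.87), whose matched value went from -0.58 to -0.12 with chromosome 14 scaled on its own. With 1 library a condition there is no test, and a log2 ratio past 0.32 in either direction was taken as the bound.

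Past that bound, DGCR8 with DSG was higher than input in 87 expressed and 186 silent spans and lower in 43 and 27, where all spans gave 33.1% higher and 31.5% lower. With formaldehyde it was higher in 79 and 198 and lower in 26 and 10 (24.8% and 27.1% of all spans). In wild type cells the counts were 50 and 148 higher and 25 and 7 lower (18.8% and 33.8%), and in METTL3KO cells 51 and 141 higher and 27 and 8 lower (17.6% and 34.8%). Silent spans were thus past the upper bound more often than all spans in each of these DGCR8 precipitates. In the heat set DGCR8 at 37 °C was higher in 74 and 152 and lower in 76 and 70 (31.5% and 42.5%), and at 42 °C higher in 89 and 217 and lower in 63 and 19 (31.1% and 42.7%). Drosha was higher in 86 and 181 and lower in 51 and 22 (28.2% and 39.5%). Dicer moved least, higher in 15 and 19 and lower in 3 and 2 (8.54% and 11.2%).

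At matched input density, the DGCR8 signal at 37 °C was highest over the genes with the most RNA. The spans were sorted into 6 groups by parental CPM. The medians were -0.11 for the 79 genes at 0 CPM, -0.044 for 70 genes up to 0.1, -0.22 for 157 genes up to 1, -0.10 for 81 genes of 1 to 5, 0.029 for 66 genes of 5 to 20 and 0.35 for the 84 genes above 20 CPM. The order was thus not strict among genes below 5 CPM, and the step came above 20. DGCR8 with DSG gave 0.16 in the top group, METTL3 H4 0.17, H5 0.13 and the mean of the METTL3 clones 0.071, while DGCR8 after heat gave 0.030. Among the 231 expressed spans, the rho with CPM was 0.56 for DGCR8 at 37 °C (0.53 with each chromosome scaled on its own), 0.29 with DSG (0.41), 0.36 for the METTL3 clones (0.25), 0.061 with formaldehyde and -0.045 for Dicer. These correlations are over spans, not samples. Length and base composition were not matched.

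**Figure D3:**
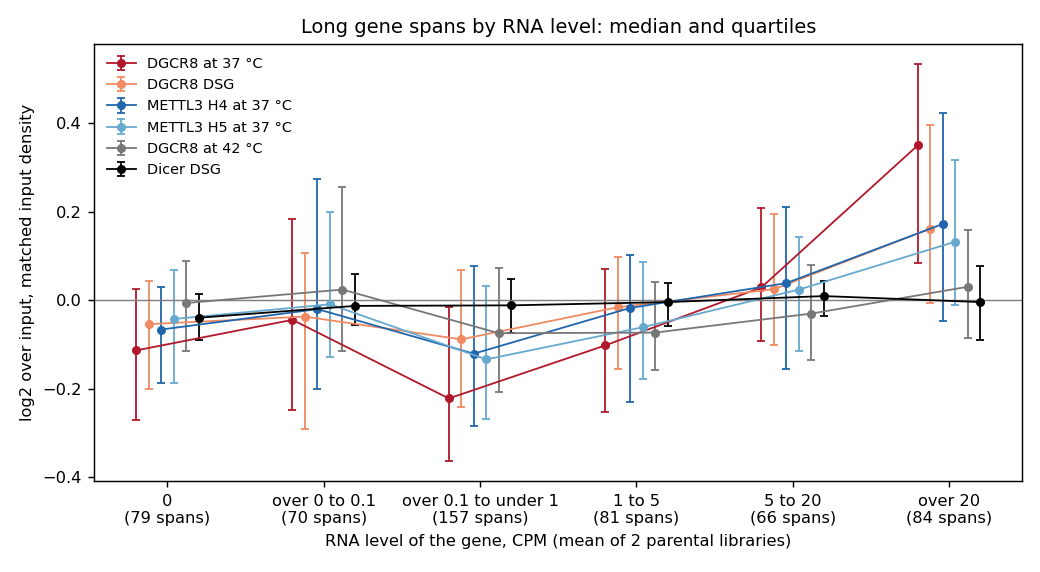
Long spans at matched input density (log2) in 6 groups of parental RNA level, for the precipitates in the legend (1 library each), as medians over spans with bars from the lower to the upper quartile. DGCR8 at 37 °C rises to 0.35 above 20 CPM, and the heated precipitate stays between -0.075 and 0.030.

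Genes with the strongest DGCR8 signal at 37 °C, picked after their values were seen, included broadly expressed ones. Macf1 (915 and 539 CPM) was at 1.14 at matched input density, 0.69 with DSG and 0.49 with Drosha. Stag1, a cohesin subunit (222 and 203 CPM), was at 1.12, 0.67 and 0.46. Ranbp17 (90.6 and 72.2 CPM) was at 1.07, 0.47 and 0.45, and Exoc4, an exocyst subunit (210 and 157 CPM), at 0.95, 0.46 and 0.39. Dst, a spectraplakin related to Macf1 (1097 and 417 CPM), was at 0.89, 0.68 and 0.53. In all 5, formaldehyde alone gave less, between 0.049 and 0.32, and Dicer between -0.12 and -0.0017. Kcnt2 stood apart among them, with 7.39 and 1.54 CPM and 1.15, 0.73 and 0.92. It lies on chromosome 1, and with each chromosome scaled on its own these values were 1.09, 0.59 and 0.79.

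Along the span the plain ratio fell towards the end of the gene. Direction came from the strand of RefSeq starts, known for 181 expressed and 229 silent spans, and each span was cut into 10 equal parts. Over expressed genes the first part exceeded the last by 0.13, 0.11, 0.16 and 0.13 in the METTL3 clones, a mean of 0.136 ± 0.022 (SD, n = 4). The other unheated values were 0.40 for METTL3 H4, 0.24 for H5, 0.17 for DGCR8 with formaldehyde, 0.28 with DSG, 0.34 for DGCR8 at 37 °C, 0.15 for Drosha and -0.059 for Dicer. Taken as the median of the genes' own differences, the clone value was only 0.0228, so the summed value does not describe a typical gene. In silent genes the same difference was -0.0084, -0.031, 0.011 and -0.0048 in the METTL3 clones, but 0.23 for H4, 0.15 for H5, 0.13 for DGCR8 at 37 °C, 0.11 with DSG and 0.087 with formaldehyde. The input was denser in the last part of expressed genes, at 1.30 against 1.06 in the first for METTL3 clone 1.

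At matched input density the decline along expressed genes was smaller. The decline for DGCR8 at 37 °C was from 0.30 in the first part through 0.14 in the fifth to 0.098 in the last, and DGCR8 with DSG from 0.16 through 0.059 to 0.024. METTL3 H4 went from 0.14 through 0.10 to -0.0078, and H5 from 0.16 through 0.072 to 0.065. Drosha went from 0.068 to 0.027. Silent genes stayed low in DGCR8 at 37 °C, at -0.097, -0.14 and -0.13. The METTL3 clones showed a first to last difference of 0.027, 0.036, 0.067 and 0.046 in expressed and of -0.046, -0.054, -0.018 and -0.030 in silent genes. The expressed value was the higher one in each precipitate. Both classes were read from the same 4 precipitates and their shared inputs, so these are paired values and not separate groups.

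**Figure D4:**
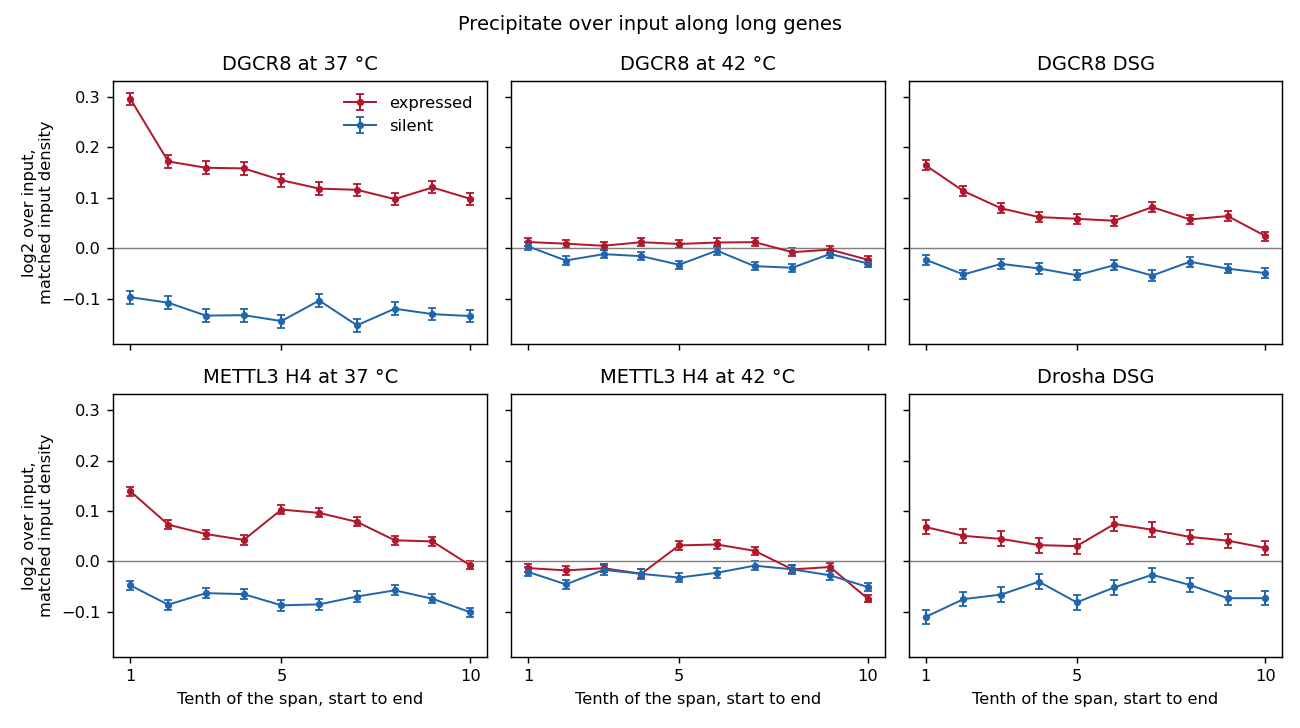
Log2 precipitate over input at matched input density in 10 equal parts of the span, from the start (1) to the end (10) of the gene, for expressed and silent long genes in 6 precipitates, with 95% counting intervals. DGCR8 at 37 °C declines from 0.30 to 0.098 over expressed genes and stays below 0 over silent ones.

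Distance from the start was also measured in kilobases, at matched input density. Over expressed genes, DGCR8 at 37 °C was at 0.50 in the first 5 kb (97 windows), 0.34 from 5 to 20 kb (543), 0.25 from 20 to 50 kb (1086), 0.21 from 50 to 100 kb and 0.18 from 100 to 150 kb (1810 each). In silent genes these bins lay between -0.15 and -0.045. With DSG the expressed bins went from 0.30 to 0.080. The other DGCR8 and Drosha precipitates showed no such peak: the first 5 kb stood at 0.049 with formaldehyde, -0.016 in wild type cells, -0.035 in METTL3KO cells and -0.054 for Drosha, whose next bin was at 0.089. METTL3 of the clones was low in the first 5 kb of expressed genes, at -0.33, -0.37, -0.32 and -0.39, while the bins from 5 to 150 kb lay between -0.0097 and 0.042. In the plain ratio the first 5 kb was the lowest of these bins for DGCR8 at 37 °C (-0.061) and with DSG (-0.077) as well. Tested window by window with edgeR, 38 of the 97 first windows of expressed genes were lower than input and 7 higher, and 33 of 112 of silent genes were lower and 0 higher. All 477127 windows tested gave 12.5% lower and 4.14% higher. Of the last windows 31 of 88 were lower in expressed and 13 of 104 in silent genes.

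Single windows inside long genes were called higher for METTL3 about as often as all windows. Of 22419 expressed windows 1083 were higher (4.83%) and 2036 lower (9.08%), and of 35823 silent ones 1268 higher (3.54%) and 1779 lower (4.97%), against 4.14% and 12.5% of all windows. These counts hang on scaling and inputs. With library totals in place of TMM factors, which moves the median of all windows by 0.22 (log2), they were 3725 and 1223 for expressed and 4646 and 968 for silent windows (13.3% and 8.56% of all windows). Without the clone 1 input they were 228 and 1022, and 286 and 748 (1.1% and 7.31%). Without the clone 2 input they were 451 and 1414, and 540 and 1137 (1.87% and 9.03%).

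After heat the class difference at matched input density was smaller in all 3 lines. In the plain ratio it was wider in all 3, with the expressed class the lower one. It went from -0.224 to -0.553 for DGCR8, from -0.629 to -0.820 for H4 and from -0.420 to -0.533 for H5. Whether the gap narrowed or widened thus depended on the matching, which was chosen after seeing the data. DGCR8 after 1 h at 42 °C stood at -0.015 at matched input density against 0.239 at 37 °C, a change of -0.25, and METTL3 fell by 0.12 in H4 and by 0.071 in H5. The unheated DGCR8 precipitates already spread from 0.0092 to 0.239, nearly as far as the heat change, and the heated libraries share their inputs with the unheated ones. By span, at matched input density, DGCR8 changed by a median of -0.076 over expressed genes, 148 of 231 falling. Over silent genes the median was 0.097, 238 of 306 rising. Matched values are relative to long-gene windows of like input density. A fall over expressed genes and a rise over silent genes are therefore not separate results. In the plain ratio the median change was 0.216 over expressed genes, 173 of 231 rising, and 0.477 over silent genes, 305 of 306 rising. No share of all spans stands beside these counts. The matched change followed the RNA level across the 231 expressed spans. The rho was -0.66 for DGCR8, -0.46 for H4 and -0.47 for H5.

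Without matching, DGCR8 after heat was higher by more than 0.32 (log2) in 278 of 306 silent spans and 70 of 231 expressed spans, and lower in 1 and 9. All spans gave 34.1% higher and 30.9% lower. The METTL3 precipitates (2 at 42 °C, 2 at 37 °C) called 0 long spans in either class in edgeR's quasi-likelihood test, where 0.0259% of 46303 spans were called higher and 0.244% lower. DESeq2 also called 0 long spans, and 7009 of all spans had an unadjusted p under 0.05. With H4 and H5 as a replicate block, the test called 249 silent spans higher and 1 lower, and 70 expressed spans higher and 6 lower, against 4.62% higher and 14.3% lower of all spans. Among the widest changes over expressed spans were Nbas, of Golgi to endoplasmic reticulum transport (0.51 ± 0.24, SE, adjusted p = 0.388 without the block), the semaphorin gene Sema5a (0.41) and Abca13 (0.35), and on the other side Dst (-0.30), Macf1 (-0.27), Gse1 (-0.20) and Rere (-0.19). Over silent spans they were the neural transcription factor gene Myt1l (0.60), the glutamate receptor gene Gria1 (0.54), Dnah9 (0.50) and Pcsk5 (0.50), with Zfp993 (-0.25) and Kcnq1 (-0.12) lowest. None of these passed the test without the block.

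The DGCR8 class difference was near 0 with and without METTL3. At matched input density it was 0.012 in wild type and 0.019 in METTL3KO cells, a difference of 0.0075 with 1 library each and both set against the wild type input. By more than 0.32 (log2), 6 expressed and 1 silent span were higher in the knockout, and 3 and 11 lower, against 11.7% higher and 13.3% lower of all spans.

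Gene groups, drawn up with earlier results known, are given by class. Of synaptic adhesion genes, all 9 expressed spans and 26 of 30 silent ones were higher than input for METTL3, with 2 silent ones lower, in the edgeR test. The shares of the whole classes called higher were 71.0% and 83.3%, and of all spans 23.3%, with 28.5% lower. Their DGCR8 medians at 37 °C, at matched input density, were 0.16 and -0.070. Expressed and silent long spans as a whole stood at 0.091 and -0.14. The 46 expressed vesicle, membrane and cytoskeleton genes were at 0.21 and their 21 silent counterparts at -0.21. Transcription and chromatin regulators were at 0.031 (15 expressed) and -0.24 (13 silent), and common fragile site genes at 0.039 (11) and -0.097 (11). Fhit, a silent fragile site gene of 1612 kb, was at 0.54, 0.44, 0.37 and 0.31 over input in the METTL3 clones and at -0.059 in DGCR8 at 37 °C at matched density. For axon guidance genes the medians were -0.035 (6) and -0.062 (14), for ion channels and partners 0.0071 (7) and -0.074 (18), and for neurotransmitter receptors -0.037 (3) and -0.16 (16). The 2 expressed cadherins were both lower than input for METTL3, and 7 of 8 silent ones higher.

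The windows with hairpins were set against the rest of their own spans. In DGCR8 at 37 °C, 19 of 25 hairpin windows of expressed genes exceeded the rest of the span at matched input density, with a median of 0.31, and 10 of 23 of silent genes, with a median of -0.074. The ranges were wide, from -0.88 to 2.20 and from -1.42 to 1.38. Over expressed genes METTL3 H4 at 42 °C also had 19 of 25 above the rest of the span. DGCR8 with DSG and in wild type cells had 16 each, Dicer 15 and Drosha 11. The share of windows without a hairpin that exceed the rest of their span was not counted. The medians over expressed genes were 0.15 with DSG, 0.19 in wild type and -0.021 in METTL3KO cells, 0.080 after heat, -0.13 for Drosha and 0.027 for Dicer. The highest was the window with the cluster of miR-23b, miR-27b and miR-24-1 printed above, in Aopep. The next was that of Mir7687 in Gse1, at 1.75 for DGCR8 at 37 °C and 1.66 with DSG but -0.99 for Drosha. Mir218-1 and Mir218-2, which lie in Slit2 and Slit3 and give the same miR-218-5p, were at 0.31 and -0.48.

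At the Aopep cluster DGCR8 at 37 °C gave 720 reads, where 97 were expected from long-gene windows of like input density. The rest of the span also exceeded its expected number, and relative to it the window had a log2 excess of 2.20, or 4.61-fold. It was the second highest of 72 windows, and the highest was its downstream neighbour with 1037 reads and 3.28. Drosha gave 326 reads (1.39, neighbour 489 reads and 2.27). DGCR8 was at 0.80 with DSG and 0.046 with formaldehyde. In wild type cells it gave 251 reads and 1.21, and in METTL3KO cells 72 reads and -0.11, and the neighbour stood at 1.41 and 0.53. After heat DGCR8 remained at 1.43 with 1128 reads, and 2.37 in the neighbour. METTL3 showed 0.88, 0.98, 0.48 and -0.23 in the clones and 0.37 and 0.55 in H4 and H5 at 37 °C, and Dicer 0.046. Each DGCR8 and Drosha value comes from 1 library. The clone 1 METTL3 values were thus above that of DGCR8 with DSG.

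**Figure D5:**
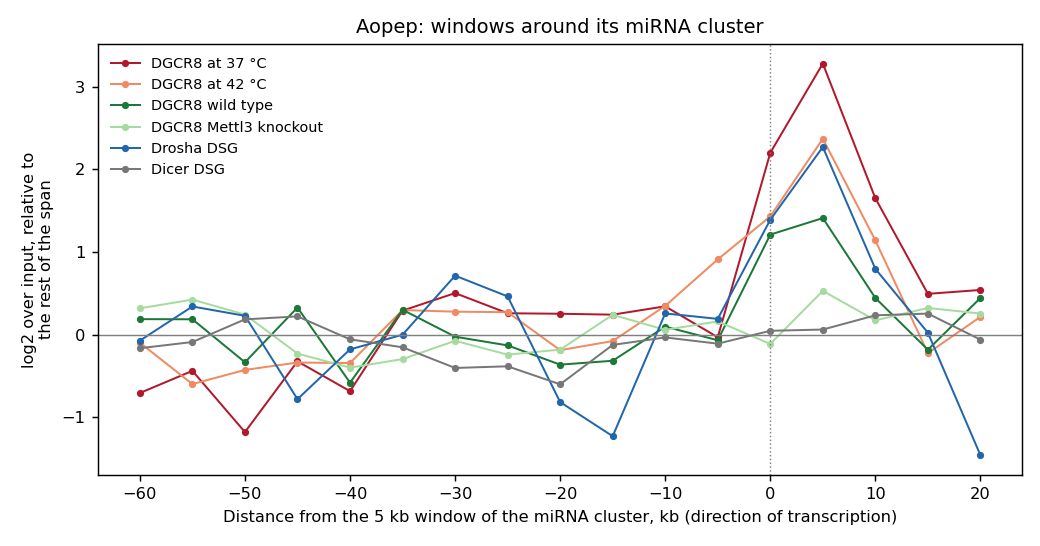
Log2 of reads over the number expected from the rest of the Aopep span at matched input density, in 5 kb windows from 60 kb before to 20 kb after the hairpin window, for the precipitates in the legend. DGCR8 at 37 °C reaches 2.20 in the hairpin window and 3.28 in the next, and Dicer is at 0.046 in the hairpin window.

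Most of the long genes tested had less RNA after heat, but none passed the test, which few of all genes passed. In these bulk libraries fewer cells of a type and less RNA per cell cannot be told apart, and reads of genes that overlap a long span may be counted with it. In parental cells 0 of 301 tested long genes changed in edgeR's quasi-likelihood test (0.0128% of 15635 genes higher, 0.0064% lower), with 4 at an unadjusted p under 0.05 and 0 by DESeq2. In METTL3KO lines it was 0 again (0.166% and 0.0192% of all genes), with 0 at an unadjusted p under 0.05. The median log2 change was -0.18 in parental and -0.14 in knockout cells, and 77 and 84 of 301 were above 0, whereas 49.1% and 46.8% of all genes were. With the cell line as a replicate block 15 long genes were lower (4.98%) and 0 higher in the knockout lines, against 2.9% and 3.87% of all genes. Among the 15 were Foxp1, a forkhead factor (175, 316, 164 and 157 CPM at 37 °C; 146, 236, 122 and 119 at 42 °C; blocked adjusted p = 0.0138), and Baz2b, a bromodomain protein (47.5, 59.2, 52.2 and 40.5; 33.6, 44.2, 42.2 and 24.7; blocked adjusted p = 0.00977). All 4 lines fell for both. Both are named after their values were seen.

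Between METTL3KO and parental cells at 37 °C, 2 long genes were higher and 2 lower (0.416% and 0.486% of all genes). Ror1, a Wnt5a receptor of the silent class, was at 0.684 and 1.15 CPM in parental and 3.79, 6.38, 4.42 and 9.49 in knockout cells (log2 fold change 2.71 ± 0.51, SE, adjusted p = 0.0386). Pakap rose from 118 and 90.6 to 268, 310, 245 and 228 CPM (1.33 ± 0.23, adjusted p = 0.0254). Zmat4, a zinc finger gene, fell from 20.1 and 14.8 to 5.69, 1.26, 2.43 and 1.51 CPM, and Dync1i1, a dynein intermediate chain, from 1.60 and 1.64 to 0.211, 0.314, 0.260 and 0.452. Groups did not overlap for these 4 genes, which the test picked from the same libraries, so this adds no support. The share of all genes without overlap was not counted. DESeq2 called 12 higher and 7 lower, against 3.13% and 1.79% of all genes. Without either parental library, or without knockout replicate 2 or 3, no long gene was called. Without knockout replicate 4 it was 1 in each direction, and without knockout replicate 1 it was 2 higher and 1 lower.

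After 48 h of 4OHT more of the long genes than of all genes were above 0 in both floxed lines. In the line labelled DGCR8, 172 of 271 (63.5%) were above 0 against 49.9% of all genes, with 7 called higher and 0 lower (1.24% and 0.24% of 14973 genes). In the Drosha line 234 of 315 (74.3%) were above 0 against 49.7%, with 15 called higher and 0 lower (2.45% and 0.369% of 16262 genes). Pdzd2, a PDZ scaffold, rose from 4.17 and 3.15 to 10.5 and 11.0 CPM in the DGCR8 line (1.56 ± 0.23, adjusted p = 0.0130) and from 20.9 and 23.7 to 44.1 and 41.8 in the Drosha line (0.95 ± 0.15, adjusted p = 0.00393). Rora, a nuclear receptor, rose from 3.15 and 5.93 to 11.6 and 11.0 and from 2.00 and 2.67 to 4.75 and 5.50 CPM. Plxdc2, a transmembrane plexin-domain protein, rose by 1.35 ± 0.23 and 0.85 ± 0.12, and Fmn1, a formin, by 1.13 ± 0.17 in the DGCR8 line. Beside Rora (1.15 ± 0.23), the largest changes in the Drosha line were in Dscaml1, a silent adhesion gene (0.560 and 0.718 to 2.49 and 2.14 CPM, 1.86 ± 0.45), Zbtb7c (1.21 ± 0.26) and Atxn1, the ataxin-1 gene (1.03 ± 0.23). Calls rested on single libraries. In the DGCR8 line they fell to 1 without control replicate 2 and 0 without any of the other 3. In the Drosha line they were 5 without 4OHT replicate 1, 27 without 4OHT replicate 2, 1 without control replicate 1 and 5 without control replicate 2.

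Aopep, the host of the cluster, was among the genes called in the Drosha line, rising from 15.6 and 17.1 to 25.9 and 27.8 CPM (0.72 ± 0.13, adjusted p = 0.00684). In the DGCR8 line it was at 13.0 and 9.45 untreated and 14.7 and 12.5 with 4OHT (0.28 ± 0.19, adjusted p = 0.558), and at 9.81 and 10.0 in parental and 14.8, 13.2, 9.36 and 8.06 CPM in METTL3KO cells. The difference between the lines was not tested.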

How the data were processed

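Chromatin and RNA tables were used as deposited: the authors counted reads per 5 kb window (24 ChIP libraries) and per gene (35 RNA libraries), and both hold raw counts, per the file headers and the values. Bowtie and mm10 are named in the submitters' processing notes, with no role or settings, and read filters are not given in the sources used here. How multiply mapping reads were treated is likewise not given.

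Spans came from RefSeq (GRCm38.p6). Windows were summed per span and class, divided by library totals and expressed as log2 of precipitate over input. METTL3 precipitates and RNA groups were tested with edgeR 4.0.16 (quasi-likelihood, TMM, Benjamini-Hochberg 0.05; limma 3.58.1, R 4.3.3), on windows with a mean of at least 10 reads and spans with at least 50 over the libraries fitted, and on genes passing edgeR's filterByExpr. DESeq2 1.42.0 was an alternative. CPM printed beside RNA tests use TMM-scaled totals, whereas CPM that set the classes use raw totals. Scripted summaries used pandas 2.3.3 and numpy 2.4.6, and the tests were tested on simulated data. Single-library comparisons have no test. Intervals (95%) cover counting error only.

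The members and gene lists were chosen with earlier results of these data known. The comparison at matched input density was added after seeing the data. Genes were named by rank: the 4 longest spans, the 5 highest and 5 lowest for METTL3, the 3 highest and 3 lowest for DGCR8 and Drosha, 4 each way after heat, and up to 4 called genes each way in RNA. Exceptions are marked, and a gene that the rule names after heat is not reported here. H4 and H5, and the METTL3KO and parental lines, were sampled at both temperatures, so line was a block in an alternative fit. Deviations of the same line correlated at 0.447 for H4 and H5 and at 0.643 to 0.742 for the knockout lines. The column of the formaldehyde DGCR8 precipitate was assigned by elimination, and titles were followed where labels conflict.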

Additional observations from a re-analysis of the deposited data

Results flagged for a closer look

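Macf1 was the 1 result of 29 groups of 4 libraries in which a library stood far from the others. Its METTL3 values over input were 0.501, 0.504 and 0.512 (log2) in 3 precipitates and 0.336 in clone 2 replicate 2, a gap of 0.936 of the whole range. Chance alone marks about 1 in 20 such groups. All 4 values lay above 0.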

How the results depend on the processing

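Matching on input density turned the class difference: for the METTL3 clones from -0.105 to 0.0454, for H4 and H5 at 37 °C from -0.525 to 0.102 and at 42 °C from -0.677 to 0.00622, for unheated DGCR8 from -0.266 to 0.0978, for Drosha to 0.0816 and for Dicer to 8.88e-05. The plain clone value was -0.0552 with spans of 400 kb or more and -0.0537 without high-input windows. Dicer was 0.00371 at a bound of 2 CPM. Plain unheated DGCR8 was -0.235 (200 kb), -0.224 (400 kb), -0.304 (0.5 CPM), -0.233 (2 CPM) and -0.234 without high-input windows. Matched values were 0.065 for the clones at 200 kb, and for H4 and H5 at 37 °C 0.0914 (10 strata), 0.107 (40 strata), 0.128 (200 kb), 0.0957 (400 kb), 0.0648 (0.5 CPM), 0.112 (2 CPM) and 0.107 without other genes. The first to last difference of the clones was 0.111 (400 kb), 0.108 (0.5 CPM), 0.173 (no other gene), 0.0228 (median of genes) and 0.0441 (matched), and matching took it from 0.321 to 0.12 and from 0.311 to 0.0817 for H4 and H5 at 37 and 42 °C, and from 0.221 to 0.103 for DGCR8. The cause was not tested.

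Leaving out 1 library gave for the clones -0.116 to -0.085 (plain), 0.0424 to 0.0499 (matched) and 0.126 to 0.144 (first to last), and for H4 and H5 -0.629 to -0.42 at 37 °C and -0.82 to -0.533 at 42 °C. Counts of METTL3 spans ran from 114 to 174 higher and 13 to 20 lower (expressed) and 165 to 269 and 2 to 6 (silent), and of windows from 228 to 1056 and 1022 to 2010, and 286 to 1346 and 748 to 1729. Library totals gave 3725, 1223, 4646 and 968 windows, and leaving out windows over 5 times the median input 719 and 809 higher.

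The replicate block gave 70 and 6 expressed and 249 and 1 silent METTL3 spans after heat, and 15 lower RNAs in heated knockout lines. Without knowledge of a pairing it gave 9 (DGCR8 line) and 13 (Drosha line) higher RNAs at 48 h, and 22 with crossed numbers (r = -0.108). It changed no other count by over 1.5 times. DESeq2 gave 12 and 7, and no filter 10 and 5, for knockout against parental cells, and no filter 12 and 29 at 48 h. Without 1 library, higher calls ran from 0 to 2 and lower from 0 to 1 (knockout), 0 to 1 (DGCR8 line) and 1 to 27 (Drosha line).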

Other observations

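The window of Mir691, in the silent gene Robo2, stood at 7.00 over the rest of its span in METTL3 H4 at 37 °C and at 8.11 at 42 °C (log2, matched input density). In H5 it was at -0.22 and 0.58, and in the 4 clone precipitates between -0.36 and 0.052. Both values above 7 or at it come from the line labelled H4 and share its 1 input. Such single-window ratios add 0.5 to the reads and to the expected number, so an input near 0 gives a large value. The median silent window held 26 reads in that input. The reads of the Mir691 window itself were not checked, so these values are not a measured excess of METTL3. In the same window DGCR8 of the first set was at 1.36 with formaldehyde and 1.38 with DSG, also with 1 shared input. The other DGCR8 precipitates lay between 0.175 and 0.722.

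Among silent hosts the highest hairpin windows of DGCR8 at 37 °C were those of Mir7224 in B3galt1 (1.38), Mir876 in Lingo2 (1.23) and Mir214 in Dnm3 (1.22), each from 1 library and named after its value was seen. For Drosha the same windows stood at 1.87, -4.92 and 0.0014. That of Mir876 was also at 2.46 in METTL3 H4 at 37 °C, so its values were extreme in both directions. The median silent window held 21 Drosha reads, so a value as low as -4.92 lies near the floor set by the added 0.5. The reads of this window were not checked.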
